A study of Mus musculus with 8 samples.

Results

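The JAK kinases and the feedback genes that STAT factors switch on were followed in splenic naive B cells of mice with and without a tumor, with Ebi3 intact or lacking in B cells. The 10 genes were chosen by symbol: Jak1, Jak2, Jak3, Tyk2, Socs1, Socs2, Socs3, Cish, Pim1 and Pim2. Each has 1 entry among the 23275 gene entries of the deposited table, and all 10 were among the 12991 genes tested, which averaged 10 or more normalized counts. JAK kinases sit on the inner tails of cytokine receptors and, when a cytokine draws the receptor chains together, phosphorylate STAT factors, which then move to the nucleus and switch on genes. Among those genes are the SOCS proteins and CISH, which bind receptors or JAKs and damp the signal, and the PIM kinases, which favor survival and growth. In B cells these routes carry signals of IL-4, IL-21, interferons, IL-6 and IL-10. Ebi3 is the shared chain of the cytokines IL-27 and IL-35, whose receptors also use JAKs and STATs.

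RNA-seq gave 8 libraries, 2 in each of 4 groups, all from naive splenic B cells of C57BL/6 mice: EBi3KO tumor, EBi3KO nontumor, WT tumor and WT nontumor. EBi3KO stands for the genotype written B-EBi3- or BEBi3-/-, in which B cells lack Ebi3, and the Cre driver is not given in the labels. The tumor is a pancreatic one by the series title, and age, sex and tumor model are not given. Libraries with WT in the tumor status field were taken as nontumor, since the design text names mice that bear no tumor, though the field itself does not state this. Nothing in the labels ties the pair of libraries in a group to different animals, and the p-values therefore reflect library-to-library spread that may be technical.

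The libraries held between 21291892 and 28297319 reads. The 8 B cell markers, among them Ms4a1, were detected in each group and made up 1.01% to 1.02% of reads in EBi3KO tumor, 0.836% to 0.895% in EBi3KO nontumor, 1.20% in WT tumor and 0.758% to 0.791% in WT nontumor libraries, while 8 T cell markers made up at most 0.00341%. The WT tumor libraries stand apart: their title prefix is IV where the other 6 have OT, and Xist averaged 22974 ± 4549 normalized counts in them against 6.22 to 16.5 in the other groups (SD, n = 2 each), while the Y-linked gene Kdm5d was at 0. For the tumor effect in WT, the tumor, the sex pattern and the title prefix cannot be told apart. For EBi3KO against WT in tumor mice, the genotype cannot be told apart from the sex pattern and the title prefix. The difference between the tumor effects carries the same limit. The EBi3KO tumor libraries differed from each other by a mean chi-square of 2.015 per gene, against 13.15 to 20.32 for the other pairs, with medians of 0.565 against 1.77 to 2.99. The labels list them as 2 samples and they were kept so, but these values do not show that they are independent, and results are also given with their mean as 1 sample. Ebi3 itself averaged 9.85 ± 1.63 normalized counts in EBi3KO tumor, 12.1 ± 0.931 in EBi3KO nontumor, 182 ± 26.4 in WT tumor and 9.96 ± 1.44 in WT nontumor libraries (SD, n = 2 each), so its level did not separate the genotypes in mice without a tumor.

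To show the DNA in front of a feedback gene and a PIM gene that were higher in EBi3KO tumor libraries, the stretches before the RefSeq start sites of Socs3 and Pim1 (GRCm38.p6) are given, 5′ to 3′ on the strand of the gene and limited to bases outside annotated exons. Capitals mark the only match to the STAT motif TTCNNNGAA, where N is any base. The Socs3 stretch is chr11:117969452-117969616 on the minus strand, inside the span of the gene in GENCODE, and the Pim1 stretch is chr17:29490535-29490752 on the plus strand, just before that span.

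Socs3: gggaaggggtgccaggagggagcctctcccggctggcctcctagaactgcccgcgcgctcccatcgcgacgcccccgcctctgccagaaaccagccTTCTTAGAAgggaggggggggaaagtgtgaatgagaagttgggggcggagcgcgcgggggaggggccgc

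Pim1: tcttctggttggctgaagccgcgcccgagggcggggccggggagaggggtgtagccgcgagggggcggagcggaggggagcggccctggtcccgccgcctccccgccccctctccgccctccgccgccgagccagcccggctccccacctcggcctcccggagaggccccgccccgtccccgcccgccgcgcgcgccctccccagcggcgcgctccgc

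The motif was searched in the 250 bases before each start. It reads the same on both strands, and the form with 1 more N in its middle, also its own reverse complement, was searched beside it. Of the 10 genes, 9 have such a window, 10 windows in all because Pim1 has a pair, and they held 1 match of the first form, the TTCTTAGAA that starts 154 bases before the Socs3 start, and 0 of the longer form. Of 32536 mouse windows of this length, 7.04% held TTCNNNGAA and 5.89% held the longer form. A match is a description of the letters and not a measured site.

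Per kilobase of transcript, averaged over the 8 libraries, Jak1 stood far above the rest at 2455 normalized counts. Pim1, Jak2 and Pim2 followed with 601, 579.9 and 557 normalized counts per kilobase. These neighbours were not separated: Pim1 was above Jak2 in 5 of 8 libraries and Jak2 above Pim2 in 3 of 8. Jak3 and Tyk2 came next with 312 and 298 normalized counts per kilobase, and they too changed places, Jak3 being above Tyk2 in 3 of 8 libraries. The feedback inhibitors were lower, with Socs3 at 145, Socs2 at 34.7, Socs1 at 20.3 and Cish at 10.6 normalized counts per kilobase, in that order in 8 of 8 libraries. The low level of the last 3 sets their precision: a library held 20 to 42 reads of Cish, 46 to 68 of Socs1 and 47 to 104 of Socs2, against 211 to 612 of Socs3.

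**Figure D1:**
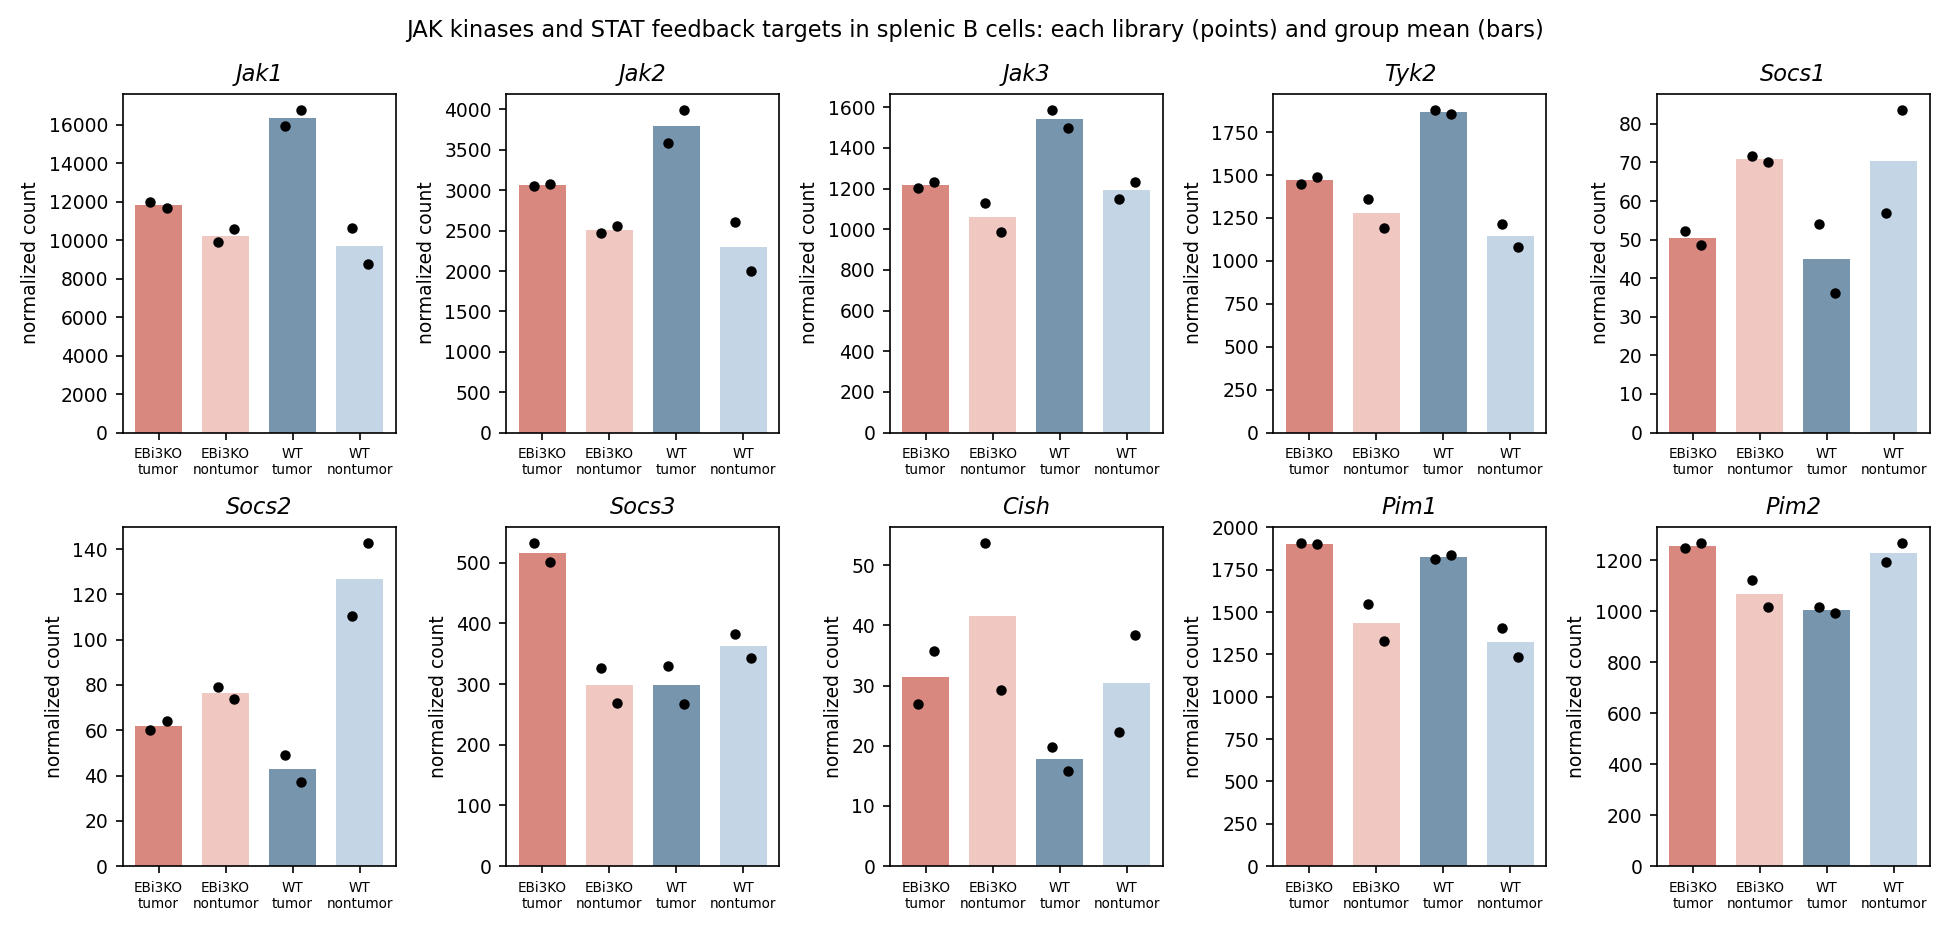
Normalized counts (vertical axes, each from 0) of the 10 genes in each library (points) and their group means (bars) for EBi3KO tumor, EBi3KO nontumor, WT tumor and WT nontumor B cells. The 4 JAK genes are highest in WT tumor, Socs3 is highest in EBi3KO tumor at 500.5 and 532 normalized counts, and Socs2 is highest in WT nontumor.

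Of the 10 genes, 2 rose with a tumor in EBi3KO, Socs3 and Pim1, and 0 fell, where 32.5% of all tested genes passed the test, 14.1% higher and 18.4% lower. In WT, 7 passed, 5 higher and 2 lower in tumor libraries, where 79.8% of all tested genes passed, 39.7% higher and 40.1% lower. In total, the shares of the 10 genes are near or below these. By direction, their shares higher lie above those of all tested genes and their shares lower lie below. The median log2 difference of the 10 genes was 0.21 in EBi3KO and 0.04 in WT, against -0.01 and 0.01 over all tested genes. The WT median lies between members that went both ways, and it was 0.01 and 0.14 without WT tumor replicate 1 or 2 and 0.22 with length and GC removed. Jak1, Jak2, Jak3, Tyk2 and Pim1 rose in WT, while Socs2 and Pim2 fell. The count in EBi3KO rests on single libraries: it moved with the library left out and fell with the EBi3KO tumor libraries averaged as 1 sample. The count over all tested genes moved in these settings too.

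**Figure D2:**
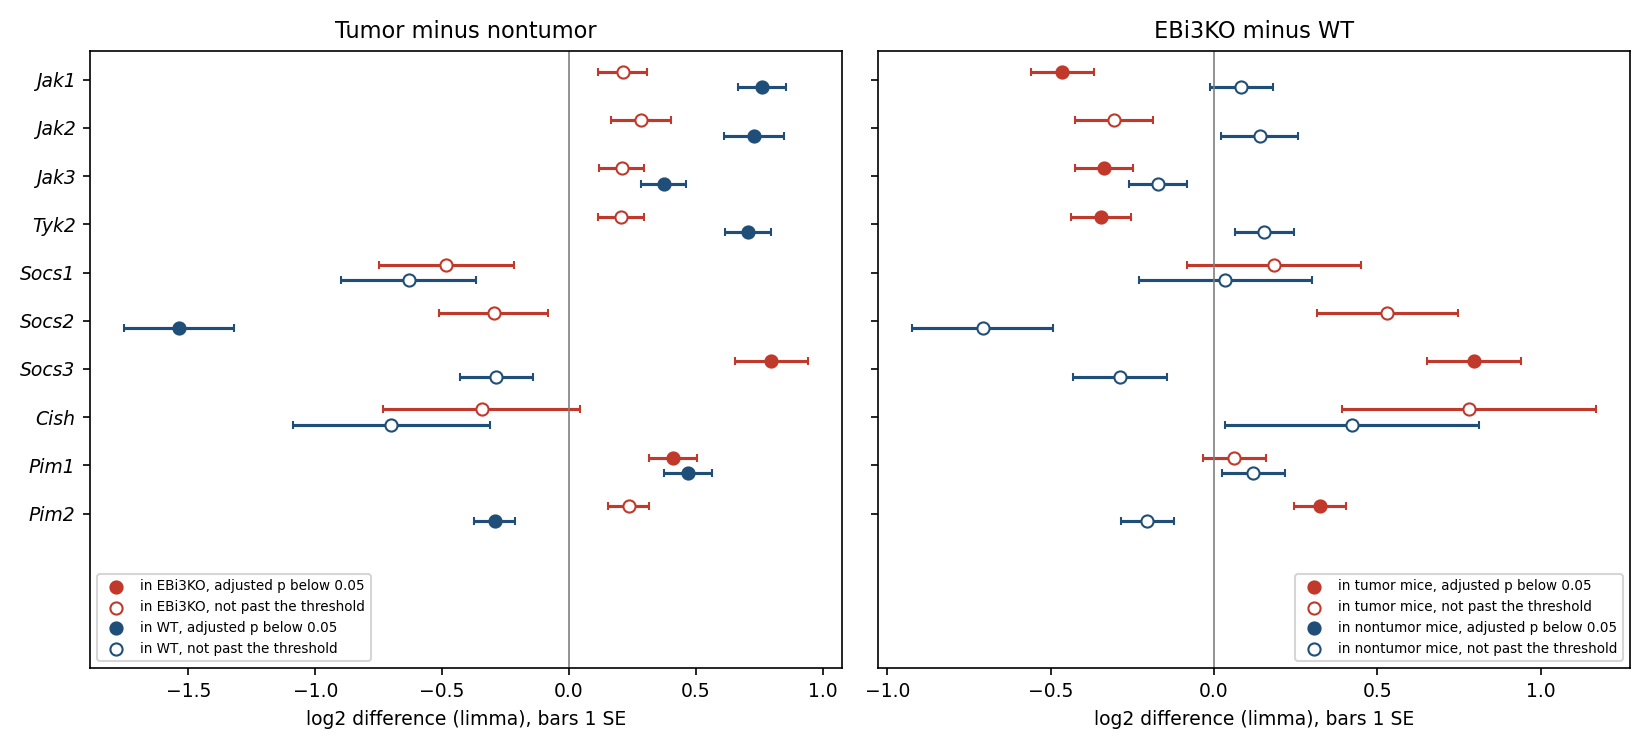
Log2 differences (horizontal axes) of each gene with 1 SE, tumor minus nontumor on the left and EBi3KO minus WT on the right. Filled points passed an adjusted p of 0.05; the JAK genes lie to the right of 0 in both genotypes, Socs3 lies at 0.80 in EBi3KO and at -0.29 in WT, and no point for mice without a tumor is filled.

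Jak1, on chromosome 4 (chr4:101152367-101265282, minus strand in GRCm38 by GENCODE vM21), encodes a JAK that serves interferon, IL-6-family and common gamma chain receptors. It had 12013 and 11699 normalized counts in EBi3KO tumor, 9910 and 10572 in EBi3KO nontumor, 15953 and 16792 in WT tumor and 10625 and 8785 in WT nontumor libraries. Both tumor groups lay above both nontumor groups, and WT tumor lay above the 6 other libraries. The log2 tumor effect was 0.21 in EBi3KO (SE 0.0962, adjusted p = 0.115) and 0.76 in WT (SE 0.0962, adjusted p = 9.02e-05). Jak1 was lower in EBi3KO tumor than in WT tumor libraries, with a log2 difference of -0.47 (adjusted p = 0.00311). In bulk RNA, fewer cells of a type and less RNA per cell cannot be told apart.

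Jak2, on chromosome 19 (chr19:29251828-29313080, plus strand), couples to the interferon-gamma receptor and to several hormone-like cytokine receptors. It had 3052 and 3072 normalized counts in EBi3KO tumor, 2470 and 2557 in EBi3KO nontumor, 3582 and 3998 in WT tumor and 2609 and 1995 in WT nontumor libraries. The order was that of Jak1, with the nontumor groups overlapping and EBi3KO tumor between them and WT tumor. Its tumor effect was 0.28 on the log2 scale in EBi3KO (adjusted p = 0.0923) and 0.73 in WT (SE 0.119, adjusted p = 0.000427). The genotype difference in tumor mice was -0.31 (adjusted p = 0.0512).

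Jak3, on chromosome 8 (chr8:71676296-71690575, plus strand), pairs with the common gamma chain. It had 1205 and 1235 normalized counts in EBi3KO tumor, 1129 and 988 in EBi3KO nontumor, 1588 and 1496 in WT tumor and 1148 and 1233 in WT nontumor libraries. WT tumor was again the highest group, while EBi3KO tumor overlapped WT nontumor. The log2 tumor effect was 0.21 in EBi3KO (adjusted p = 0.0998) and 0.37 in WT (SE 0.0888, adjusted p = 0.00396), and EBi3KO tumor was lower than WT tumor, at -0.34 (adjusted p = 0.0101). Jak3 shares 404 exonic bases with Insl3 on the same strand, so reads there could belong to either gene.

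Tyk2, on chromosome 9 (chr9:21104068-21131243, minus strand), serves type I interferon and IL-12-family receptors. It had 1448 and 1489 normalized counts in EBi3KO tumor, 1363 and 1192 in EBi3KO nontumor, 1881 and 1853 in WT tumor and 1213 and 1082 in WT nontumor libraries. The tumor groups lay apart from each other and above both nontumor groups, which overlapped. Its log2 tumor effect was 0.20 in EBi3KO (adjusted p = 0.111) and 0.70 in WT (SE 0.0910, adjusted p = 0.000103), and EBi3KO tumor differed from WT tumor by -0.35 (adjusted p = 0.01).

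Leaving out single libraries moved several of these JAK calls. In EBi3KO, Jak1 and Jak2 passed without WT nontumor replicate 1 (adjusted p = 0.0448 and 0.0172) or replicate 2 (0.0457 and 0.0174), and Jak3 and Tyk2 passed without EBi3KO nontumor replicate 1 (0.0346 and 0.0409). Between genotypes in tumor mice, Jak3 did not pass without EBi3KO tumor replicate 1 or 2 (0.072 and 0.0529) or WT tumor replicate 1 (0.0706). Tyk2 did not pass there without any 1 of the 4 tumor libraries (0.0502 to 0.0712). Jak2 did pass there without WT nontumor replicate 1 or 2 (0.00627 and 0.00634). The WT tumor effects of the 4 kinases held without each library in turn. The summed B cell markers had the same order of groups as Jak1. Of the 8 markers, 5 rose and 2, Cd79a and Cd79b, fell with a tumor in WT. Of all tested genes, 39.7% were higher and 40.1% lower there. The part of the B cell markers in these results was not tested.

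As shares of the summed JAK level per kilobase, Jak1 held 66.5% in EBi3KO tumor, 67.0% in EBi3KO nontumor, 68.6% in WT tumor and 66.6% in WT nontumor libraries. Its share lay between 65.7% and 68.8% in the 8 libraries, so the makeup of the family shifted little while its members differed between groups. Jak2 held between 14.6% and 16.9%, Tyk2 between 7.72% and 9.18%, and Jak3 between 7.48% and 11.3%, the last in WT nontumor replicate 2.

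Socs3, on chromosome 11 (chr11:117966079-117970047, minus strand), encodes an inhibitor of IL-6-family receptor signaling and is a classic STAT3 target. It had 532 and 500.5 normalized counts in EBi3KO tumor, 327 and 269 in EBi3KO nontumor, 330.3 and 267 in WT tumor and 382 and 343 in WT nontumor libraries. Both EBi3KO tumor libraries lay above the 6 others, EBi3KO nontumor and WT tumor overlapped, and WT nontumor lay above both of them. Socs3 rose with a tumor in EBi3KO by 0.80 on the log2 scale (SE 0.144, adjusted p = 0.00633), and its tumor effect in WT was -0.29 (SE 0.144, adjusted p = 0.0947). It was higher in EBi3KO tumor than in WT tumor libraries by 0.80 (adjusted p = 0.00154). The difference between the tumor effects was 1.08 (SE 0.203, adjusted p = 0.00265). The rise in EBi3KO did not pass without EBi3KO tumor replicate 1 (0.75, adjusted p = 0.0668) or with the EBi3KO tumor libraries averaged (adjusted p = 0.0581), and the WT effect passed without WT tumor replicate 1 (-0.44, adjusted p = 0.0416).

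Other gene groups were summed in the same libraries. The 6 plasma cell markers summed to 0.217% to 0.218% of reads in EBi3KO tumor, 0.103% to 0.114% in EBi3KO nontumor, 0.0371% to 0.0434% in WT tumor and 0.132% to 0.146% in WT nontumor libraries. The 16 immediate early genes, which respond within minutes to stimulation or handling, summed to 0.369% to 0.372% in EBi3KO tumor, 0.277% to 0.407% in EBi3KO nontumor, 0.226% to 0.242% in WT tumor and 0.286% to 0.333% in WT nontumor libraries. Outside WT tumor, the plasma cell sum is mostly Igj. It had 42735 and 42448 normalized counts in EBi3KO tumor and 18319 and 16540.4 in EBi3KO nontumor libraries. In WT tumor libraries Mzb1, at 4743 and 4050 normalized counts, was above Igj, at 3899.6 and 3145. Of the 6 markers, 5 rose and 1, Mzb1, fell with a tumor in EBi3KO, while in WT 1, Sdc1, rose and 3 fell. Of all tested genes, 14.1% were higher and 18.4% lower in EBi3KO, and 39.7% and 40.1% in WT. The 9 macrophage and monocyte markers summed to 0.199% to 0.202% of reads in EBi3KO tumor, 0.298% to 0.365% in EBi3KO nontumor, 0.0370% to 0.0423% in WT tumor and 0.313% to 0.333% in WT nontumor libraries. The 10 erythroid markers summed to 0.293% to 0.302% in EBi3KO tumor, 1.08% to 1.56% in EBi3KO nontumor, 0.0889% to 0.120% in WT tumor and 0.625% to 0.678% in WT nontumor libraries. None of these markers was at 0 in a whole group, and their part in the results for Socs3 and the other genes was not tested.

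Socs2, on chromosome 10 (chr10:95385362-95417180, minus strand), encodes an inhibitor best known for restraining growth hormone signaling and is a STAT5 target. It had 60.0 and 64.2 normalized counts in EBi3KO tumor, 79.2 and 73.9 in EBi3KO nontumor, 49.2 and 37.0 in WT tumor and 110.7 and 143 in WT nontumor libraries. No pair of groups overlapped, and WT nontumor was the highest. Socs2 fell by 1.54 on the log2 scale with a tumor in WT (SE 0.216, adjusted p = 0.000174), with adjusted p between 1.44e-05 and 0.00212 over the other settings. Its tumor effect in EBi3KO was -0.30 (adjusted p = 0.304), and the tumor effects differed by 1.24 (adjusted p = 0.00923). EBi3KO tumor was above WT tumor by 0.53 (adjusted p = 0.0604), a difference that passed without WT tumor replicate 1 (0.73, adjusted p = 0.0429).

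Socs1, on chromosome 16 (chr16:10782240-10785536, minus strand), encodes a direct JAK inhibitor induced by interferons. It had 52.2 and 48.6 normalized counts in EBi3KO tumor, 71.6 and 70.0 in EBi3KO nontumor, 54.0 and 36.2 in WT tumor and 57.0 and 83.7 in WT nontumor libraries. The 4 tumor libraries lay below the 4 nontumor libraries. The log2 tumor effect was -0.48 in EBi3KO (adjusted p = 0.181) and -0.63 in WT (SE 0.265, adjusted p = 0.0525), which passed without WT tumor replicate 1 (adjusted p = 0.0256) or WT nontumor replicate 1 (adjusted p = 0.0194).

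Cish, on chromosome 9 (chr9:107296026-107302784, plus strand), encodes a STAT5-induced inhibitor of cytokine and antigen receptor signaling. It had 27.0 and 35.7 normalized counts in EBi3KO tumor, 53.7 and 29.3 in EBi3KO nontumor, 19.9 and 15.7 in WT tumor and 22.4 and 38.4 in WT nontumor libraries. WT tumor was lowest and the other groups overlapped. Neither the tumor effect in EBi3KO (-0.34, adjusted p = 0.511) nor that in WT (-0.70, SE 0.389, adjusted p = 0.126) passed, and the second passed without WT nontumor replicate 1 (adjusted p = 0.047). Exons of Cish overlap 2 opposite-strand entries, Gm17040 and Gm17041, by up to 479 bases.

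Socs3 took a different part of the summed level per kilobase of the 4 inhibitors by group: 78.2% in EBi3KO tumor, 61.4% in EBi3KO nontumor, 74.1% in WT tumor and 60.9% in WT nontumor libraries. The lowest tumor library, at 73.1%, was above the highest nontumor library, at 66.0%. With a tumor, Socs3 rose in EBi3KO, while in WT Socs2 fell.

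Pim1, on chromosome 17 (chr17:29490753-29496112, plus strand), encodes a serine/threonine kinase that is a common STAT3 and STAT5 target. It had 1907 and 1900.1 normalized counts in EBi3KO tumor, 1547 and 1327 in EBi3KO nontumor, 1812 and 1835 in WT tumor and 1406 and 1235 in WT nontumor libraries. Tumor libraries lay above nontumor libraries in both genotypes. Pim1 rose with a tumor by 0.41 in EBi3KO (SE 0.0958, adjusted p = 0.0165) and by 0.47 in WT (SE 0.0958, adjusted p = 0.00167) on the log2 scale, and the difference between these effects was -0.06 (adjusted p = 0.733). The EBi3KO call was lost without EBi3KO tumor replicate 1 or 2 (adjusted p = 0.108 and 0.106), without EBi3KO nontumor replicate 2 (0.30, adjusted p = 0.0923) and with the EBi3KO tumor libraries averaged (adjusted p = 0.111). Pim1 exons overlap those of Gm26885 on the opposite strand by 488 bases.

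Pim2, on the X chromosome (chrX:7878262-7883432, plus strand), encodes a related kinase that favors survival of B-lineage cells. It had 1246 and 1266 normalized counts in EBi3KO tumor, 1121 and 1015 in EBi3KO nontumor, 1016 and 991 in WT tumor and 1192 and 1266 in WT nontumor libraries. EBi3KO tumor overlapped WT nontumor, and EBi3KO nontumor overlapped WT tumor. Pim2 fell by 0.29 with a tumor in WT (SE 0.0806, adjusted p = 0.0086), and its tumor effect in EBi3KO was 0.24 (SE 0.0806, adjusted p = 0.0525). The tumor effects differed by 0.53 (adjusted p = 0.00509), and EBi3KO tumor was higher than WT tumor by 0.32 (adjusted p = 0.00776). With the dependence on length and GC content removed, the WT effect turned to 0.25 (adjusted p = 0.00747), and neither the difference between tumor groups (-0.07, adjusted p = 0.395) nor that between tumor effects (0.12, adjusted p = 0.351) passed. The WT call was lost without WT tumor replicate 2 (adjusted p = 0.0541), and the call between tumor groups without EBi3KO tumor replicate 2 or WT tumor replicate 2 (adjusted p = 0.0625 and 0.0561). The EBi3KO effect passed without EBi3KO nontumor replicate 1 (0.31, adjusted p = 0.0278) or either WT nontumor library (0.0377 and 0.0381). Since Pim2 is X-linked and the sex pattern differs in WT tumor, neither the tumor in WT nor the genotype in tumor mice can be told apart from the sex pattern for it. Pim1 held 53.5% of the summed PIM level per kilobase in EBi3KO tumor, 50.5% in EBi3KO nontumor, 57.9% in WT tumor and 44.9% in WT nontumor libraries.

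Between genotypes in mice without a tumor, 0 of the 10 genes passed, where 0% of all tested genes passed with limma. Below an unadjusted 0.05 stood 8.07% of all tested genes and 2 of the 10, Socs2 at -0.71 and Pim2 at -0.20 on the log2 scale, both with an adjusted p of 0.604. On recovered reads, edgeR called 0 of the 10 genes, and DESeq2 called 0 of them and 21 of all genes. In tumor mice 5 of the 10 passed, where 60.4% of all tested genes passed, 31.9% higher and 28.6% lower: Socs3 and Pim2 were higher and Jak1, Jak3 and Tyk2 lower in EBi3KO. That count was lower without EBi3KO tumor replicate 1 or 2 or WT tumor replicate 2, and with the EBi3KO tumor libraries averaged. The count over all tested genes was lower in these settings too.

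The test of whether the tumor effect differed between genotypes, the interaction, passed for 5 of the 10 genes, where 52.9% of all tested genes passed, 27.5% higher and 25.4% lower. Jak1 and Tyk2 differed by -0.55 and -0.50 on the log2 scale (adjusted p = 0.00951 and 0.0113), the smaller effect being in EBi3KO. Socs2, Socs3 and Pim2 differed by 1.24, 1.08 and 0.53 (adjusted p = 0.00923, 0.00265 and 0.00509), with the EBi3KO effect above the WT effect. Jak2 was at -0.44 (adjusted p = 0.0516) and passed without WT nontumor replicate 1 (-0.64, adjusted p = 0.00203), and Tyk2 was lost without EBi3KO tumor replicate 1 (adjusted p = 0.0517). The effects share no library between genotypes, but the WT effect carries the sex pattern and title prefix of the WT tumor libraries.

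Log2 differences were related to transcript length across 12868 genes, which are not independent replicates. Spearman's rho was 0.26 for the tumor effect in EBi3KO and 0.453 for that in WT. For EBi3KO against WT it was 0.284 in nontumor mice and -0.526 in tumor mice. The JAK transcripts are long, 4019 to 5030 bases, and those of the SOCS, Cish and PIM genes short, 2045 to 2908 bases. With the dependence on length and GC content removed, the tumor effect in WT was 0.29 for Jak1 (adjusted p = 0.00621), 0.19 for Jak2 (adjusted p = 0.0631), 0.42 for Jak3 and 0.48 for Tyk2. In the same fit Socs2 stayed lower at -1.25 (adjusted p = 0.000633), Pim1 was at 0.72 and Socs3 at 0.12 (adjusted p = 0.413). In EBi3KO, Socs3 was at 0.89 (adjusted p = 0.00171), Pim1 at 0.46 (adjusted p = 0.00577), Pim2 at 0.37 (adjusted p = 0.00539) and Jak3 at 0.24 (adjusted p = 0.0284), all past the threshold. Between genotypes in tumor mice Jak1 was at -0.13 (adjusted p = 0.181) and Jak2 at 0.08 (adjusted p = 0.435), while Socs3 remained higher at 0.44 (adjusted p = 0.0191). Jak3 and Tyk2 remained lower in EBi3KO there, at -0.46 and -0.25 (adjusted p = 0.000882 and 0.0145). The interaction passed for Tyk2, Socs2 and Socs3 (-0.30, 1.05 and 0.77) and not for Jak1 (-0.14, adjusted p = 0.314).

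**Figure D3:**
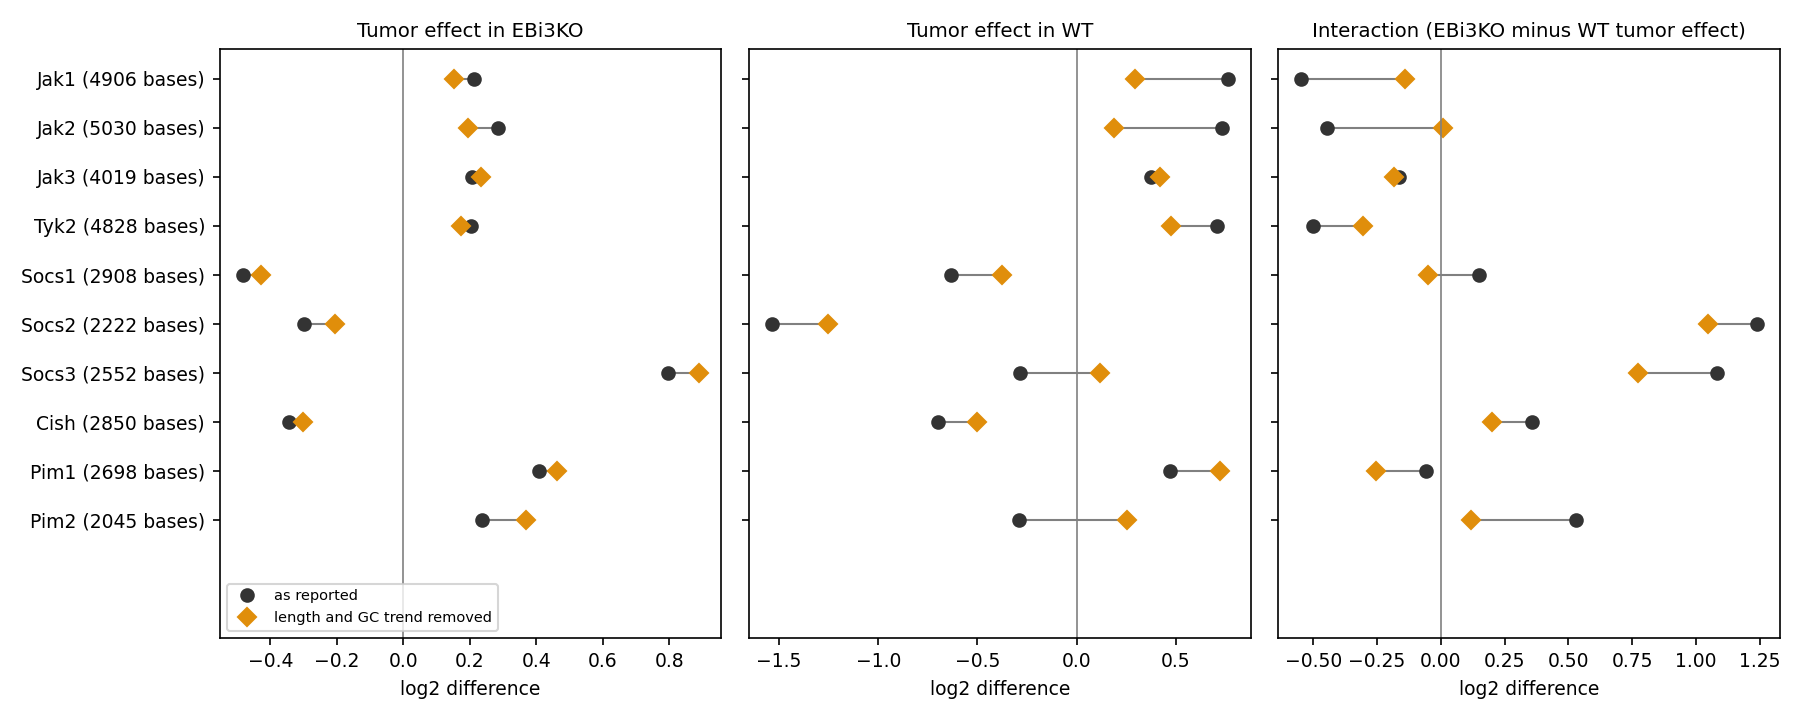
Log2 difference (horizontal axes) of each gene as reported (circles) and in the fit without the length and GC trend (diamonds), for the tumor effect in EBi3KO, that in WT and the interaction; transcript length stands beside each name. Socs3 is at 0.80 and 0.89 in EBi3KO, while Pim2 in WT lies on opposite sides of 0 at -0.29 and 0.25.

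The receptor chains, STAT factors and further restraints around these genes were counted from fixed lists. Of 7 STAT factors, 2 rose and 0 fell with a tumor in EBi3KO, and 5 rose and 0 fell in WT, where 14.1% and 18.4% of all tested genes were higher and lower in EBi3KO and 39.7% and 40.1% in WT. Stat2, which carries type I interferon signals, rose by 0.41 in EBi3KO (adjusted p = 0.028) and by 1.30 in WT (adjusted p = 1.13e-05), a difference of -0.88 (adjusted p = 0.00241). Stat3, the main STAT of IL-6-family receptors, rose by 0.32 in EBi3KO (adjusted p = 0.0133) and by 0.39 in WT (adjusted p = 0.00085). With the length and GC trend removed, the STAT counts in WT were 3 higher and 2 lower, and the median was -0.02 against 0.36 before. In that fit 5020 of 12868 genes were higher and 4475 lower in WT.

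Of 21 JAK-coupled receptor chains, 6 rose and 2 fell with a tumor in EBi3KO, and 9 rose and 6 fell in WT, against 32.5% of all tested genes called in EBi3KO and 79.8% in WT, so the WT count is near the background. Ifnar1, a chain of the type I interferon receptor, rose by 0.64 in EBi3KO (adjusted p = 0.00854), and Ifngr2, a chain of the interferon-gamma receptor, by 0.38 (adjusted p = 0.00659). In WT, Il21r and Il4ra, which receive IL-21 and IL-4, rose by 1.03 and 0.86 (adjusted p = 3.55e-06 and 6.45e-06), and Il13ra1 fell by 2.31 (adjusted p = 2.55e-06). The tumor effect was smaller in EBi3KO for Il21r and Il4ra, with differences of -0.82 and -0.54 (adjusted p = 0.000469 and 0.00208). Il21r averaged 5512 normalized counts in EBi3KO tumor, 4790 in EBi3KO nontumor, 6646 in WT tumor and 3264 in WT nontumor libraries. Il4ra averaged 7588, 6092, 8364 and 4608 in the same order. The nontumor groups therefore differed in mean as well, though neither gene passed there (adjusted p = 0.185 and 0.361).

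Of 15 other restraints of the pathway, 4 rose and 0 fell with a tumor in EBi3KO, and 13 rose and 0 fell in WT, against 14.1% higher and 18.4% lower of all tested genes in EBi3KO and 39.7% and 40.1% in WT. In WT their median log2 difference was 0.79, against 0.01 over all tested genes. Sh2b3, an adaptor that holds JAK2 in check, rose by 0.36 in EBi3KO (adjusted p = 0.0255) and 1.54 in WT (adjusted p = 2.24e-06). Cblb, a ubiquitin ligase, rose by 1.30 in WT (adjusted p = 3.4e-06), and Socs7 by 0.93 (adjusted p = 1.29e-05). Between tumor groups 1 of the 15 was higher and 10 were lower in EBi3KO, where 31.9% and 28.6% of all tested genes were higher and lower. Among the 10 were Sh2b3, Cblb and Pias1 at -0.83, -0.96 and -0.70 (adjusted p = 0.00017, 6.55e-05 and 0.000124). With length and GC removed, 9 rose and 2 fell in WT, with a median of 0.48, where 5020 of 12868 genes were higher and 4475 lower. Socs2, by contrast, was lower in both WT tumor libraries than in either WT nontumor library.

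Of 12 other STAT-regulated genes, 4 rose and 4 fell with a tumor in EBi3KO, and 6 rose and 4 fell in WT, against 32.5% of all tested genes called in EBi3KO and 79.8% in WT. Id2, a repressor of helix-loop-helix factors, fell by 0.56 in EBi3KO (adjusted p = 0.00683) and by 2.70 in WT (adjusted p = 2.25e-07). Ccnd3, a cyclin of the G1 phase, fell by 1.01 in EBi3KO (adjusted p = 0.000964) and by 1.74 in WT (adjusted p = 3.75e-06). Myc, a driver of growth, was higher in EBi3KO tumor than in WT tumor libraries by 1.27 (adjusted p = 0.000224). With the EBi3KO tumor libraries averaged as 1 sample, the EBi3KO counts of the STAT, receptor and restraint lists and of these 12 genes were lower. The count over all tested genes was lower there too.

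The list of 16 immediate early genes had 2 higher and 1 lower in EBi3KO tumor libraries, and 2 higher and 11 lower in WT tumor libraries, each against nontumor, where 14.1% and 18.4% of all tested genes were higher and lower in EBi3KO and 39.7% and 40.1% in WT. Nr4a1, an orphan nuclear receptor induced by antigen receptor signals, rose by 1.45 in EBi3KO (adjusted p = 0.0153). Its EBi3KO nontumor libraries lay apart, at 3563 and 1695 normalized counts. Egr3 rose by 0.37 and Fos fell by 0.56 in EBi3KO (adjusted p = 0.0406 and 0.0371), and the median of the 16 was 0.05. With the EBi3KO tumor libraries averaged as 1 sample, the EBi3KO count was lower, as it was over all tested genes, and Nr4a1 no longer passed. Zfp36, which speeds decay of cytokine transcripts, fell by 1.21 in WT (adjusted p = 2.3e-06). With length and GC removed, 3 rose and 7 fell in WT, where 5020 of 12868 genes were higher and 4475 lower. The median of the 16 was then -0.13 against -1.11 before.

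**Figure D4:**
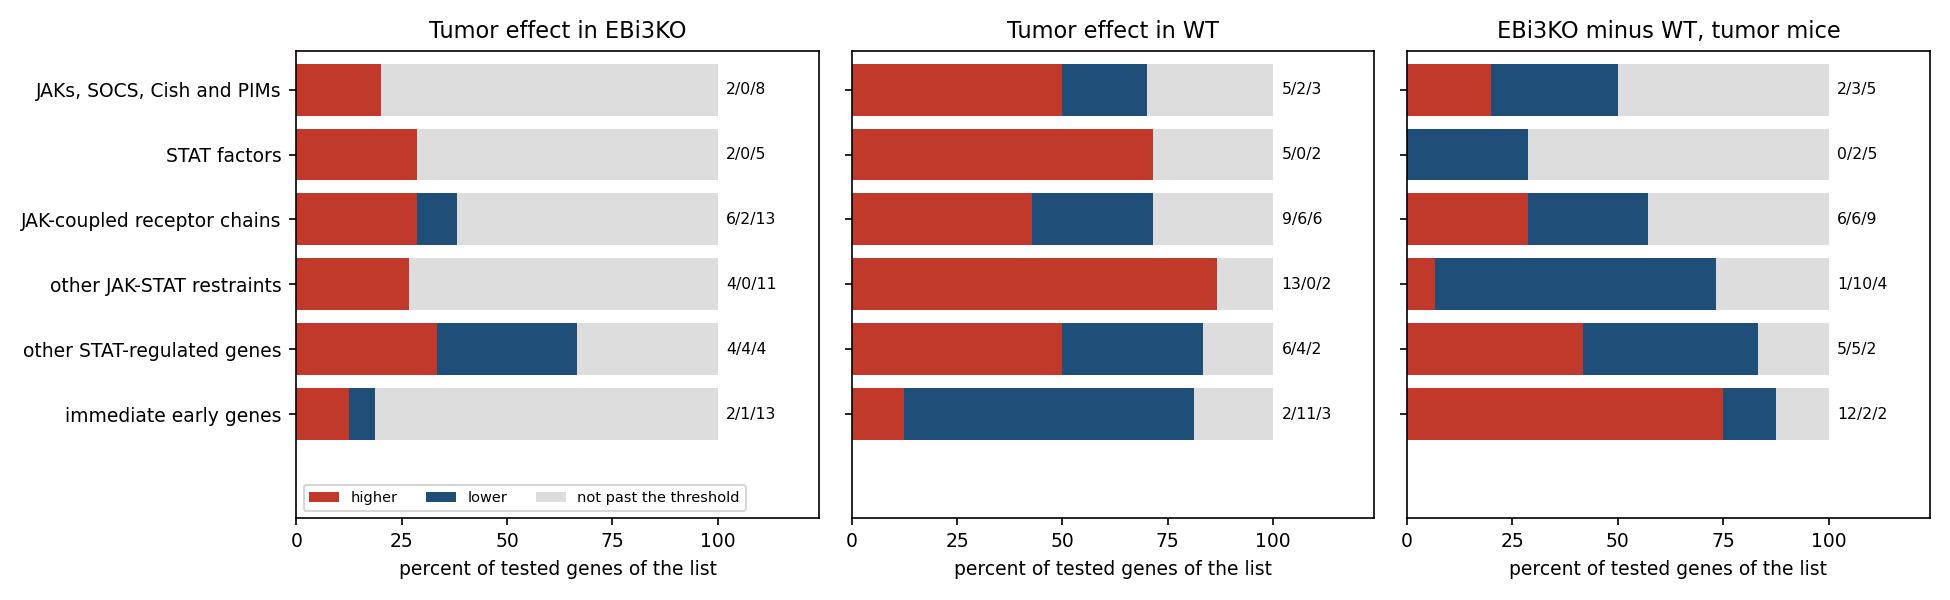
Percent of the tested genes of each list (horizontal axes) that were higher, lower or not past the threshold, for the tumor effect in EBi3KO, that in WT and EBi3KO minus WT in tumor mice; the numbers beside the bars are genes higher, lower and not passed. The other restraints stand at 13 higher and 0 lower in WT.

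For each of the 10 genes, the tested genes with the most similar pattern over the 8 libraries were found as those with the smallest root mean square distance between centred log2 values, among 10326 others with a mean of at least 50 (10327 for Cish), passing over names of the Gm and Rik kind. Ddx3x lay nearest to Jak1 (0.0268), Tspan2 to Jak2 (0.0362), Irf9 to Jak3 (0.0640) and Tmem87a to Tyk2 (0.0245). Csrnp1 lay nearest to Socs3 (0.106), followed by Derl3 (0.125), which is also in the plasma cell marker list. Csrnp1 averaged 4465 normalized counts in EBi3KO tumor, 2926 in EBi3KO nontumor, 2927 in WT tumor and 3351 in WT nontumor libraries. Socs1 was nearest to Hlx (0.0966), Socs2 to Nubpl (0.153) and Cish to Gpt (0.218), the widest of these distances belonging to the gene with the fewest reads. Pim1 was nearest to Sdr39u1 (0.0376) and Pim2 to Mif4gd (0.0552). These distances are descriptions over libraries that share group, depth and length trends.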

How the data were processed

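RNA was measured in 8 libraries. Per the labels' protocols, total RNA was extracted with RNeasy Plus Mini kits and libraries were made with a stranded mRNA kit. Per the submitters' processing notes, Salmon, DESeq2 and mm10 were used, and the version of each is not given in the sources used here. DESeq2-normalized counts (signal) per gene symbol are what the authors deposited. Dividing each library by its step gave whole reads for 100% of values within 0.01, and these recovered reads gave the depths.

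Of 23302 entries, 27 were date names in place of symbols and were left out. Genes with a mean of at least 10 were tested on log2(value + 1), a scale that understates changes of low genes, with 1 limma 3.58.1 model of 4 group means (R 4.3.3, mean-dependent prior variance, with 4.63 prior beside 4 residual degrees of freedom). Tests are two-sided, adjusted by Benjamini-Hochberg over the 12991 tested genes per comparison, and called below 0.05. The design is tumor against nontumor in each genotype, EBi3KO against WT at each tumor status, and the difference of the tumor effects. Alternatives were other pseudocounts, filters, scalings and variance settings, edgeR 4.0.16 and DESeq2 1.42.0 on recovered reads, 4 libraries alone, each library left out, title numbers as a block, and length and GC removal by splines. The limma script was tested on simulated data. Transcript length, GC and gene positions come from GENCODE vM21 (GRCm38), matched for 99.1% of tested genes, and start-site windows from RefSeq (GRCm38.p6). The start-site window of Socs2 was not used here.

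The 10 genes and the other lists were chosen with earlier results of these data known, so their counts are descriptions. Named genes are the 10, up to 3 genes per other list and comparison with the smallest p, and the nearest genes by pattern. Means are given ± SD over 2 libraries.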

Additional observations from a re-analysis of the deposited data

Results flagged for a closer look

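The tumor effect differed between genotypes, by the test of that difference, for 5 of the 10 genes, where 52.9% of all tested genes passed. For Jak1 the effect in EBi3KO minus that in WT was -0.55 on the log2 scale, and for Tyk2 it was -0.50, with positive effects in both genotypes. With length and GC removed, the Jak1 difference was -0.14 (adjusted p = 0.314) and that of Tyk2 -0.30 (adjusted p = 0.0341). For Socs2 the difference was 1.24, with a negative effect in both. For Socs3 it was 1.08 and for Pim2 0.53, and both had a positive effect in EBi3KO and a negative one in WT. With length and GC removed, the WT effects were 0.12 for Socs3 (adjusted p = 0.413) and 0.25 for Pim2 (adjusted p = 0.00747), and the differences between genotypes were 0.77 for Socs3 (adjusted p = 0.0106) and 0.12 for Pim2 (adjusted p = 0.351). The tumor, the genotype, the sex pattern and the title prefix of the WT tumor libraries cannot be told apart in these differences.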

How the results depend on the processing

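Over 23 alternative settings, 17 of the 50 single-gene results kept their direction and side of the threshold wherever a value was given, and 10 more kept their side while a value that was never called changed sign. Of 1134 values, 25 kept their direction but were no longer past the threshold, 47 newly passed and 23 changed sign. Of these 23, 21 were called in neither fit. The other 2 were of Pim2 with length and GC removed. Its tumor effect in WT was 0.25 and past the threshold. Its difference between genotypes in tumor mice was -0.072 and no longer past it. The causes were not tested.

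The count of the 10 genes called in EBi3KO (2) became 5 with quantile normalization, 1 with no trend in the prior variance, 4 with its 4 libraries alone, 4 with length and GC removed and 0 with the EBi3KO tumor libraries averaged, and lay between 0 and 5 with 1 library left out. All genes called there (4227) became 2363 with no trend and 734 with averaging, and lay between 754 and 5299 with 1 library left out. Of those calls 43.4% were higher, against 53.7% with quantile normalization, 34.1% with no trend and 10.9% with averaging, and 11.5% to 48.1% with 1 library left out. Between genotypes in nontumor mice, the genes called (0) became 21 with DESeq2 and 0 to 5 with 1 library left out. In tumor mice the count of the 10 genes (5) became 8 with 4 libraries alone, 3 with length and GC removed, 2 with averaging and 2 to 6 with 1 library left out. All genes called in tumor mice (7851) became 9598 with 4 libraries alone and 5859 with length and GC removed. The interaction count (5) became 3 with length and GC removed, where all genes called (6868) became 4748.

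Title numbers 7 and 8 are shared by the WT groups only, and nothing in the labels says they pair libraries. Same-numbered WT libraries deviated in opposite directions (r = -0.256 across 12991 genes). With the numbers as a replicate block, 7 of the 10 genes were called in WT and 2 in EBi3KO, as without it. With crossed numbers the counts were 8 and 5. Averaging and crossing were chosen after seeing the data. Depth limits Cish, Socs1 and Socs2 most, and groups of 2 limit every error.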
